A study of Homo sapiens with 9 samples.

Results

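Tissue factor, the protease-activated receptors (PARs) and the proteins that restrain them are described here in MDA-MB-231 cells, an established human triple-negative breast cancer line, with and without the polyamine copper chelator TEPA. The 8 genes are F3, F2R, F2RL1, TFPI, TFPI2, THBD, PROCR and SERPINE2, taken by name from the 59453 gene names of the raw count table. All 8 were among the 16556 genes with enough counts to be tested. The set was assembled around F2RL1, which was chosen on its fall after 8 h of TEPA in these same libraries, so its values are given as a description with no test, and the other 7 were tested.

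RNA-Seq covered 3 groups of 3 libraries: untreated cells, cells with TEPA for 8 h and cells with TEPA for 24 h. The sample labels put the MDA-MB-231 treatment at 8 mM in a sentence on 24 h alone, and the RNA sequencing methods give a lower concentration, so the dose is uncertain at both times. One untreated group, whose time of collection is not given, served both time points. All libraries came from one cell line, and nothing states that the replicates of a group were separate cultures, so the p-values measure only the spread between these libraries.

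Tissue factor, encoded by F3, is the membrane receptor that binds factor VIIa and starts clotting by activating factors IX and X, which leads to thrombin. PARs are G protein-coupled receptors that a protease switches on by cutting the receptor's own amino terminus, which then acts as a tethered ligand. Thrombin cuts PAR1 (F2R), and trypsin-like proteases and the complex of tissue factor with factors VIIa and Xa cut PAR2 (F2RL1), so that tumor cells carrying these proteins can respond to clotting proteases. TFPI blocks the tissue factor complex, thrombomodulin (THBD) and the endothelial protein C receptor (PROCR) turn thrombin toward activating the anticoagulant protein C, and TFPI2 and SERPINE2 (protease nexin-1) are protease inhibitors.

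Total counts ran from 34633755 to 49342659 per library, and the 8 genes took 0.0614 to 0.0878% of them. Levels below are CPM, each count as a share of the TMM-scaled library size. Of 6 markers of MDA-MB-231 cells (VIM, CD44, KRT18, KRT8, EGFR and AXL), 6 were tested, and their summed level was 5660 to 7440 CPM. Endothelial markers, of which 2 of 6 were tested, summed to 1.8 to 9.51 CPM over the 9 libraries, and megakaryocyte and platelet markers, of which 1 of 5 was tested, to 0.306 to 0.653 CPM with 2 at 0 in every library. Leukocyte markers had 2 of 5 tested, summed to 0.993 to 5.41 CPM and had 2 at 0, while epithelial and hormone receptor markers had 3 of 5 tested, summed to 55.6 to 89.2 CPM and had 1 at 0. The latter sum was mostly ERBB2, with means of 81.4, 73.2 and 53 CPM in untreated cells, at 8 h and at 24 h. Group means were 0.351 to 3.19 CPM for CDH1 and 1.12 to 1.45 CPM for EPCAM. Mitochondrial genes took 1.79 to 2.91% of counts in untreated cells, 3.61 to 4.02% at 8 h and 1.89 to 2.02% at 24 h; leaving them out changed no count of called members. Untreated replicate 1 stood apart from the other untreated libraries, with the lowest F3, SERPINE2 and THBD and the highest TFPI, F2R and F2RL1 of its group. Among the 8 genes, calls against untreated cells that depend on it are given with and without it. Ratios of counts are tested with it only.

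Per kilobase of annotated exon, F2RL1 was the most abundant of the 8 transcripts in untreated cells at 140 ± 9.63 CPM per kb (SD, n = 3), followed by F3 at 63 ± 9.99 and PROCR at 35.3 ± 0.627. The lower levels were those of TFPI2 (11.8 ± 0.162), F2R (10.5 ± 0.62), TFPI (8.22 ± 1.15), THBD (5.43 ± 0.558) and SERPINE2 (3.45 ± 0.419), in CPM per kb. Adjacent genes in this order did not overlap among the untreated libraries. Exons were merged over all isoforms, which for TFPI gave 11714 bases and for SERPINE2 8957 bases, so their values per kilobase are understated. At 8 h F3 stood first at 85.6 ± 5.41 CPM per kb and F2RL1 came next at 70.4 ± 1.39, and at the lower end THBD (4.71 to 5.23) overlapped both TFPI (5.01 to 5.38) and SERPINE2 (4.61 to 4.98). By 24 h F2RL1 was again first at 65.2 ± 1.02 CPM per kb, and PROCR (44.7 to 47) and F3 (41.9 to 46.3) overlapped behind it, as did F2R (7.9 to 8.28) and TFPI (7.58 to 8.38).

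F3 lies on chromosome 1 (chr1:94529173-94541759, hg38, minus strand). Untreated libraries held 149.8, 205.8 and 189.6 CPM of F3, the 8 h libraries 264.7, 234.9 and 241.8 CPM, and the 24 h libraries 133.5, 120.9 and 131.4 CPM. The 3 groups did not overlap, and F3 went up first and down later. At 8 h F3 rose by 0.44 on the log2 scale (95% interval 0.27 to 0.62, adjusted p = 0.00038, edgeR), a 1.36-fold higher level. By 24 h it was below untreated cells, at -0.50 on the log2 scale (-0.68 to -0.32, adjusted p = 0.00012, edgeR), and between 8 h and 24 h it fell by 0.94 (adjusted p = 1.7e-07, edgeR). Without untreated replicate 1 the changes were 0.32 at 8 h and -0.62 at 24 h, and both calls were kept.

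TFPI, on chromosome 2 (chr2:187464230-187565760, minus strand), moved the other way. It measured 110.8, 84.32 and 93.72 CPM in untreated cells, 63.02, 60.34 and 58.64 CPM at 8 h and 94.12, 88.84 and 98.21 CPM at 24 h. Every 8 h library was below every other library, whereas the 24 h and untreated libraries overlapped. The log2 fold change was -0.66 at 8 h (-0.82 to -0.51, adjusted p = 2.8e-06, edgeR) and -0.04 at 24 h (-0.19 to 0.12, adjusted p = 0.69), and TFPI rose by 0.63 from 8 h to 24 h (adjusted p = 3.4e-06). The summed endothelial markers were lowest at 8 h, at 1.8 to 2.12 CPM, against 3.55 to 4.51 CPM in untreated cells and 7.79 to 9.51 CPM at 24 h, mostly PECAM1. The leukocyte markers summed to 0.993 to 1.27 CPM at 8 h, 2.96 to 5.41 CPM in untreated cells and 3.86 to 5.14 CPM at 24 h, mostly CD14. Other markers of these lists went the other way. In untreated cells, at 8 h and at 24 h, means were 0.508, 0.799 and 0.543 CPM for KDR and 0, 0.0432 and 0.0313 CPM for TEK. For CD68 they were 0.153, 0.329 and 0.216 CPM. The endothelial genes VWF and CDH5 stood near 0 in all groups, with means of 0.0258 to 0.0341 CPM and 0.00654 to 0.0351 CPM, and the T cell gene CD3E was at 0 in every library. A change in cell content was not tested. TFPI is the direct inhibitor of the tissue factor complex, and the number of F3 counts per TFPI count was 1.35, 2.44 and 2.02 in the untreated replicates, then 4.2, 3.89 and 4.12 after 8 h, then 1.42, 1.36 and 1.34 after 24 h. The 8 h libraries lay above all others in this ratio. An exact two-sided permutation test gave p = 0.1 against untreated cells and against 24 h, the smallest that 3 against 3 allows. Every 8 h library was above all others in F3 and below them in TFPI, so this outcome was already fixed by the 2 genes. At 24 h the ratio of 1.37 ± 0.0416 (SD, n = 3) compared with 1.94 ± 0.55 in untreated cells gave p = 0.3 in the same exact test. Untreated replicate 1 lay within the 24 h range, while untreated replicates 2 and 3, at 2.44 and 2.02, lay above it. The test was not run without untreated replicate 1.

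**Figure D1:**
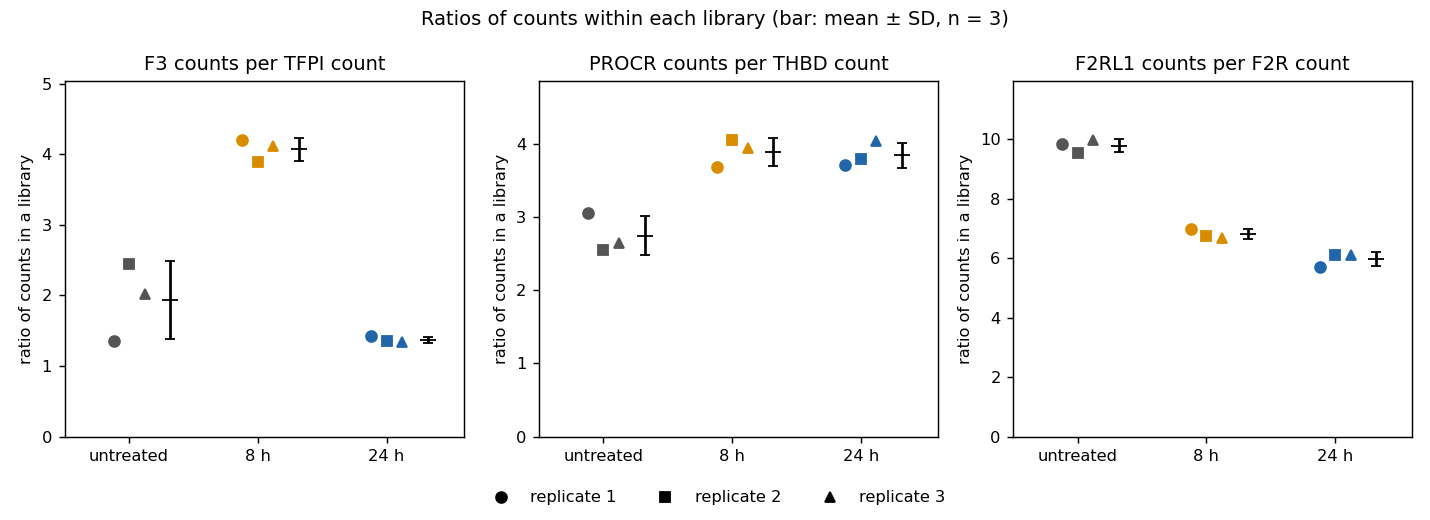
Ratios of counts within each library for F3 to TFPI, PROCR to THBD and F2RL1 to F2R, with 1 point per library and bars for the group mean and SD (n = 3). F3 per TFPI was 4.07 at 8 h against 1.94 in untreated cells and 1.37 at 24 h, and F2RL1 per F2R was 9.79, 6.82 and 5.97 in untreated cells and at 8 h and 24 h.

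F2RL1, the PAR2 gene (chr5:76818933-76835315, plus strand), measured 440.2, 384.7 and 403.5 CPM in untreated libraries, 201.9, 210 and 206.7 CPM at 8 h and 187.7, 193.5 and 191.9 CPM at 24 h. Its untreated libraries were all above its TEPA libraries, and the 24 h libraries were all below the 8 h libraries. The log2 fold change was -0.99 at 8 h and -1.10 at 24 h against untreated cells, which are levels of 0.504 and 0.467 of untreated. Ranked from the largest fall among all 16556 genes, F2RL1 was number 448 at 8 h and number 391 at 24 h. Over all alternatives the change ran from -1.04 to -0.94 at 8 h and from -1.15 to -1.05 at 24 h. Because its fall was the reason for choosing it, these values support nothing beyond themselves, and the 2 times share the untreated libraries.

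F2R, the PAR1 gene (chr5:76716126-76735770, plus strand), measured 44.66, 40.32 and 40.47 CPM in untreated libraries, 28.85, 31.08 and 30.91 CPM at 8 h and 32.88, 31.74 and 31.39 CPM at 24 h. The untreated libraries did not overlap with either TEPA group. F2R fell by 0.47 on the log2 scale at 8 h (95% interval -0.58 to -0.35, adjusted p = 3.7e-06, edgeR) and fell by 0.38 at 24 h (adjusted p = 1.8e-05, edgeR). Both changes kept their call without any one library. Between the TEPA times it differed by 0.08 (-0.03 to 0.20, adjusted p = 0.22) although the libraries of the 2 times did not overlap. The number of F2RL1 counts per F2R count went from 9.86, 9.54 and 9.97 without TEPA to 7, 6.76 and 6.69 after 8 h and to 5.71, 6.1 and 6.11 after 24 h, which is given without a test.

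PAR3 (F2RL2) and PAR4 (F2RL3) are the remaining receptors of the family and are not among the 8 genes. F2RL2 measured 5.385, 7.311 and 6.441 CPM in untreated libraries, 7.024, 6.274 and 6.503 CPM at 8 h and 1.726, 1.552 and 1.835 CPM at 24 h. It overlapped with untreated cells at 8 h (log2 fold change 0.04, adjusted p = 0.77, edgeR) and fell at 24 h by 1.91 (-2.19 to -1.63, adjusted p = 1e-08, edgeR), the number 65 of all genes from the largest fall. F2RL3 was scarce, with 17, 19 and 11 counts in the untreated replicates, 6, 7 and 2 counts after 8 h and 5, 2 and 1 counts after 24 h, and its call at 8 h was lost without 8 h replicate 3 (log2 fold change -1.20, adjusted p = 0.053, edgeR). At 24 h its log2 fold change was -2.59 (adjusted p = 0.00048, edgeR), a value that rests on few counts. F2RL1 held 88.9 to 89.7% of the counts of the 4 PARs in untreated cells, 84.7 to 84.9% at 8 h and 84.4 to 85.3% at 24 h. The shares of F2R were 8.98 to 9.32%, 12.1 to 12.7% and 13.9 to 14.8% in the same order, and those of F2RL2 1.1 to 1.69%, 2.53 to 2.95% and 0.684 to 0.815%.

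F2RL2, F2R and F2RL1 lie within one stretch of chromosome 5, with 92.7 kb between F2RL2 and F2R and 83.2 kb between F2R and F2RL1. F2RL2 (chr5:76615482-76623413, minus strand) sits inside IQGAP2 on the opposite strand, and the reads were counted by strand. IQGAP2, named after its values were seen, held 29, 30 and 25 counts in the untreated replicates, 8, 8 and 7 counts after 8 h and 5, 5 and 2 counts after 24 h. Its changes on the log2 scale were -1.76 and -2.86 (adjusted p = 0.00022 and 5.5e-06, edgeR). Of 5 listed neighbors that are not PAR genes 2 were tested, IQGAP2 and AGGF1, and AGGF1, also named outside the rule for named genes, did not pass the test, with -0.03 at 8 h and 0.09 at 24 h.

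Thrombomodulin and the protein C receptor act as a pair on the protein C pathway, and only PROCR passed the test here in the fit of all libraries. PROCR (chr20:35172072-35216240, plus strand) measured 59.51, 61.12 and 59.11 CPM in untreated libraries, 77.79, 77.17 and 77.87 CPM at 8 h and 75.91, 79.71 and 78.47 CPM at 24 h. It was higher in all 6 TEPA libraries than in all untreated libraries, and the 2 TEPA groups overlapped. PROCR rose by 0.37 on the log2 scale at 8 h (95% interval 0.29 to 0.45, adjusted p = 1.1e-06, edgeR) and by 0.38 at 24 h (0.30 to 0.46, adjusted p = 6e-07, edgeR), with a difference between the times of 0.01 (-0.07 to 0.09). THBD (chr20:23045633-23049672, minus strand) measured 19.52, 23.97 and 22.37 CPM in untreated libraries, 21.12, 19.03 and 19.75 CPM at 8 h and 20.44, 21.06 and 19.44 CPM at 24 h, so all its groups overlapped. Its log2 fold changes were -0.14 (-0.29 to 0.02, adjusted p = 0.13, edgeR) and -0.11 (-0.27 to 0.04, adjusted p = 0.21, edgeR). Without untreated replicate 1 they were -0.22 (adjusted p = 0.011, edgeR) and -0.19 (adjusted p = 0.019, edgeR), and THBD was then called lower at both times. PROCR counts per THBD count were 2.75 ± 0.267 (SD, n = 3) in untreated cells, 3.89 ± 0.19 at 8 h and 3.85 ± 0.172 at 24 h, with p = 0.1 in the exact permutation test against untreated cells at either time.

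SERPINE2 (chr2:223975045-224039318, minus strand) is a membrane-associated serpin that inhibits thrombin and urokinase. It measured 26.95, 34.41 and 31.39 CPM in untreated libraries, 44.57, 41.28 and 41.58 CPM at 8 h and 33.05, 32.97 and 29.36 CPM at 24 h. Its 8 h libraries were above all others, and its 24 h libraries lay within the range of the untreated ones. SERPINE2 rose by 0.46 on the log2 scale at 8 h (95% interval 0.30 to 0.61, adjusted p = 0.00011, edgeR), differed by 0.04 from untreated cells at 24 h (adjusted p = 0.68) and fell by 0.42 from 8 h to 24 h (adjusted p = 0.00019). Without untreated replicate 1 its rise at 8 h was 0.37, and the fall of TFPI at 8 h was -0.55, both still called. TFPI2 (chr7:93885396-93890753, minus strand), a matrix-associated inhibitor of plasmin and trypsin, measured 29.25, 28.5 and 28.65 CPM in untreated libraries, 30.75, 26.22 and 28.05 CPM at 8 h and 36.49, 33.22 and 38.9 CPM at 24 h. At 24 h every library was above every other. The log2 fold change was -0.02 at 8 h (-0.16 to 0.12, adjusted p = 0.8, edgeR) and 0.33 at 24 h (0.19 to 0.47, adjusted p = 0.00051, edgeR), with 0.35 between the times (adjusted p = 0.00028).

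**Figure D2:**
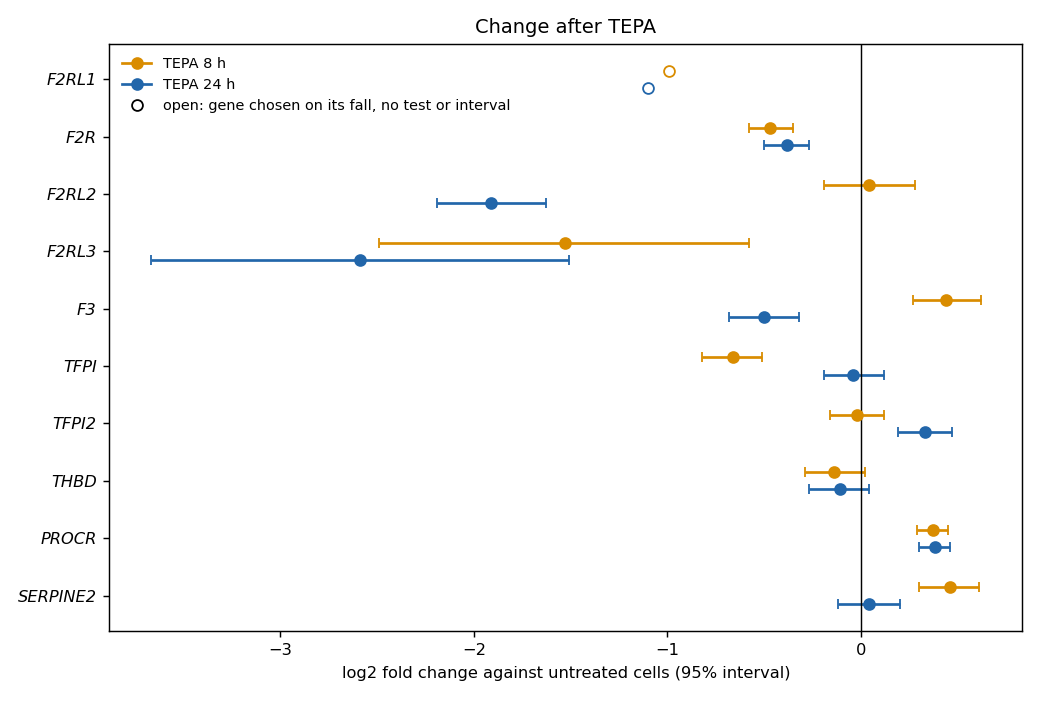
Log2 fold change with its 95% interval for the 8 genes and for F2RL2 and F2RL3, in TEPA at 8 h and at 24 h against untreated cells. F2RL1, chosen on its fall, is drawn as open points without an interval, and F3 has 0.44 at 8 h and -0.50 at 24 h.

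Of the 7 genes tested, 3 rose (F3, PROCR and SERPINE2), 2 fell (F2R and TFPI) and 2 had no call (TFPI2 and THBD) at 8 h, while over all genes 25.2% rose and 24.5% fell. At that time 5 of the 7 had groups that did not overlap, against 57.8% of all genes. At 24 h 2 rose (TFPI2 and PROCR), 2 fell (F3 and F2R) and 3 had no call, beside 25.7% and 26.8% of all genes, and 4 did not overlap, beside 57.2%. From 8 h to 24 h 2 rose (TFPI and TFPI2), 2 fell (F3 and SERPINE2) and 3 had no call, beside 26% and 28.8%, and 5 did not overlap, beside 62%. Calls were thus common among all genes as well. F3 was called in opposite directions at the 2 times, TFPI and SERPINE2 were called at 8 h and not at 24 h, TFPI2 was called at 24 h and not at 8 h, and each of these 4 differed between the times by the direct comparison. PROCR and F2R were called in one direction at both times.

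Across the 9 libraries the log2 CPM of F2RL1 tracked that of F2R (Pearson r = 0.95) and ran opposite to PROCR (r = -0.99), as TFPI did to SERPINE2 (r = -0.97) and to F3 (r = -0.82). These describe 9 libraries in 3 groups that share one treatment course. Among 11919 genes with a mean of at least 100 counts, those whose pattern was most like F2RL1 were HSPA5 (r = 0.9949), BEX3 (r = 0.9948), ACOX2 and EMP1 (both r = 0.9947) and DUSP5 (r = 0.9945). For F3 they were NPM1 (r = 0.9975), DKK1 (r = 0.9971), CCT6A (r = 0.9955), HSPD1 (r = 0.9953) and GFM1 (r = 0.9934).

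The promoters of the genes whose levels moved are shown because their transcripts followed different courses. RefSeq gave the 250 bases before the start for 6 of the 8 genes (GRCh38.p14, all but F2R and THBD), and the windows of TFPI and SERPINE2 lie inside the annotated gene and are not printed. Sequences run 5′ to 3′ on the gene's strand, with capitals marking matches, on either strand, to AP-1 (TGANTCA), Sp1 (GGGCGG), TEAD (GGAATG), the Slug and Snail E-box (CAGGTG) or the hypoxia response core (ACGTG). F3 is chr1:94541760-94542009, TFPI2 chr7:93890754-93891003, PROCR chr20:35171822-35172071 and F2RL1 chr5:76818780-76818932, the last of them shortened to 153 bases that end at the annotated gene start.
F3: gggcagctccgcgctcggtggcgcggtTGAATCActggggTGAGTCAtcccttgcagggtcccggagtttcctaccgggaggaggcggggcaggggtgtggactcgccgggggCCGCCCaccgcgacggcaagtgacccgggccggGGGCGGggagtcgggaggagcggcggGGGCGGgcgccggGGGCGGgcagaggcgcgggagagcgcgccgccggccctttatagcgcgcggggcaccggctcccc
TFPI2: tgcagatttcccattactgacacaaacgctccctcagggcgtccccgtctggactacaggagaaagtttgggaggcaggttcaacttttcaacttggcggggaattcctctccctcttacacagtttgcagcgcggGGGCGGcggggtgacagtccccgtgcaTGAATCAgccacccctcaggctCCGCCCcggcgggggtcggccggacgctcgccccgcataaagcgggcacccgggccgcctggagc
PROCR: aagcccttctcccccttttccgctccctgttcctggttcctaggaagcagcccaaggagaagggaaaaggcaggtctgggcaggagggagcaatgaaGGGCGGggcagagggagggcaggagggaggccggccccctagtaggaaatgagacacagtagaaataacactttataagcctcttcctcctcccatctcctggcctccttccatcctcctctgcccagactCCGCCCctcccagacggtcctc
F2RL1: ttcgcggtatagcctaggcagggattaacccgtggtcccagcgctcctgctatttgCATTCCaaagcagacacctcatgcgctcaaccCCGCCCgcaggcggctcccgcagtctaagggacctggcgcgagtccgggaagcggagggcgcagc

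The F3 window held 2 AP-1 matches at 223 and 210 bases and 4 Sp1 matches at 137, 104, 78 and 65 bases before the RefSeq start. TFPI2 had 1 AP-1 match at 87 bases and Sp1 matches at 114 and 65 bases, and PROCR had Sp1 matches at 153 and 22 bases. F2RL1 had a TEAD match at 194 bases and an Sp1 match at 162 bases in the printed stretch, and a further Sp1 match at 77 and an E-box at 31 bases in the unprinted part. Of 34788 promoters of the same length, 6.59% held the AP-1 letters, 42.6% Sp1, 11.9% TEAD, 17.5% the E-box and 18.5% the hypoxia core. The TFPI window held none of these motifs. The unprinted SERPINE2 windows held Sp1 matches at 230 and 183 bases before a start. Before another start they held an Sp1 match at 50 bases and overlapping hypoxia core matches at 87 and 86 bases. A match of letters is a description of the sequence, and binding was not measured.

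Around the 8 genes, a wider list of 129 genes was drawn up and 88 were tested. It joins clotting, vitamin K, serpin, plasminogen and tissue factor handling genes with the other PARs and proteases that cleave PARs. It also holds G proteins and effectors, genes induced by PAR signaling and neighbors of the PAR genes. Its counts are therefore not counts of coagulation genes alone. At 8 h 13 rose and 42 fell, at 24 h 16 rose and 36 fell, and from 8 h to 24 h 32 rose and 27 fell. Over all genes the shares that rose and fell were 25.2% and 24.5%, 25.7% and 26.8%, and 26% and 28.8% in the same order. The medians of their log2 fold changes were -0.17, -0.08 and 0.08, against 0, 0 and -0.02 over all genes. These lists are described by count and median only.

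Among serpins and other inhibitors, 2 of 15 rose and 7 fell at 8 h, beside 25.2% and 24.5% of all genes. At 24 h 3 rose and 6 fell, beside 25.7% and 26.8%. SERPINH1, a collagen chaperone, fell by 0.60 at 8 h and fell by 1.36 at 24 h, SERPINB1 fell by 0.63 and SERPINB6 fell by 0.41 at 8 h, and SERPINF1 and SPINT2 rose by 0.76 and 0.67 at 24 h.

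Plasminogen activation genes fell more often than they rose. At 8 h 2 of 9 were higher and 6 lower (edgeR), beside 25.2% and 24.5% of all genes. At 24 h 0 were higher and 7 lower (edgeR), beside 25.7% and 26.8%. DESeq2 called 8 and 7 of these 9 genes, as did edgeR's unadjusted p under 0.05. PLAT (tissue plasminogen activator) fell by 1.14 at 8 h and fell by 0.42 at 24 h against untreated cells, and PLAU (urokinase) fell by 0.25 and fell by 0.76. PLGRKT, a plasminogen receptor, fell by 0.38 and fell by 0.46.

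Of the clotting factors and cofactors, 6 of 20 were tested. At 8 h 0 of these rose and 2 fell, beside 25.2% and 24.5% of all genes. At 24 h 1 rose and 2 fell, beside 25.7% and 26.8%. F13A1, the fibrin crosslinking factor, fell by 0.98 at 8 h and fell by 1.53 at 24 h, F8 fell by 0.51 at 8 h, and at 24 h GAS6 fell by 0.68 and PROS1 (protein S) rose by 0.35. In the vitamin K cycle 1 of 4 rose and 1 fell at either time: FURIN rose by 0.21 at 8 h, GGCX fell by 0.12 at 8 h and fell by 0.10 at 24 h, and VKORC1L1 rose by 0.14 at 24 h. Of 22 proteases that cleave PARs, 4 were tested, with 0 called at 8 h by edgeR (1 at an unadjusted p under 0.05, 0 in DESeq2), and 1 rose and 1 fell at 24 h, when CTSS (cathepsin S) rose by 0.63.

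Genes acting downstream of or beside the receptors were mixed. Of 22 G proteins, arrestins and effectors tested, 6 rose and 8 fell at 8 h and at 24 h alike. Beside this list and the next, 25.2% of all genes rose and 24.5% fell at 8 h, and 25.7% and 26.8% at 24 h. GRK3 rose by 0.67 at 8 h and 0.44 at 24 h, ARRB2 rose by 0.84 at 24 h, ARRB1 fell by 0.58 at 8 h, GRK5 rose by 0.49 at 8 h, PLCB1 fell by 0.55 and fell by 0.38, and GNA11 fell by 0.38 at 24 h. Of 12 genes that handle tissue factor, 2 rose and 8 fell at 8 h and 2 rose and 4 fell at 24 h. Among these ITGA3 fell by 0.35 and fell by 0.47, FLNA rose by 0.35 and then fell by 0.28, ANO6 (a phospholipid scramblase) fell by 0.31 at 8 h, PDIA3 fell by 0.27 and fell by 0.19, and ITGA6 fell by 0.48 at 24 h.

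Of 15 genes known to be induced by PAR signaling, 2 rose and 9 fell at 8 h, beside 25.2% and 24.5% of all genes. At 24 h 2 rose and 6 fell, beside 25.7% and 26.8%. CXCL8 measured 18.32, 8.187 and 9.991 CPM in the untreated replicates, 3.45, 3.346 and 3.129 CPM after 8 h and 11.69, 14.92 and 13.43 CPM after 24 h, which gave -1.86 on the log2 scale at the earlier time (adjusted p = 9.7e-06, edgeR). Its 8 h libraries were below all others. Its 24 h libraries overlapped with the untreated ones through untreated replicate 1 alone, which lay above them, while untreated replicates 2 and 3 lay below. The same held for CXCL1, with 8.585, 2.889 and 4.387 CPM in untreated replicates against 7.258 to 7.876 CPM at 24 h. It held too for IL6, with 20.9, 11.36 and 13.67 CPM against 16.85 to 19.71 CPM. Fits of these genes without untreated replicate 1 are not given here. CSF2 fell by 1.54 at 8 h and fell by 0.47 at 24 h. It measured 17.86, 11.32 and 11.92 CPM in the untreated replicates against 8.67, 11.19 and 9.76 CPM at 24 h. Its fall at 24 h thus leaned in part on untreated replicate 1, and a fit of CSF2 without that library is not given here. CXCL1 fell by 1.52 and IL6 fell by 0.91 at 8 h. At 24 h FOS rose by 1.36, EGR1 rose by 0.99 and DUSP6 fell by 0.46. In bulk RNA, fewer cells expressing a gene and less RNA per cell cannot be told apart, and neither protein nor clotting activity was measured in these files.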

How the data were processed

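RNA was extracted by the study from MDA-MB-231 cells, and paired-end stranded mRNA libraries were sequenced. Per the submitters' processing notes and methods, the authors used FastQC for read quality, HISAT2 for alignment to hg38 and featureCounts for stranded counting over exons; tool versions are not given in the sources used here. The deposited values are raw counts per gene name, without normalization, in 9 libraries.

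In R 4.3.3, edgeR 4.0.16 was run on these counts: filterByExpr (minimum count 10) kept 16556 genes, TMM scaled the libraries, and all 9 libraries entered one quasi-likelihood fit. The Benjamini-Hochberg adjustment ran over all of these genes, and a call is an adjusted p under 0.05. Intervals are 95% and cover the spread between libraries. F2RL1 was left out of all tests. Ratios of counts were compared by exact two-sided permutation. The likeness of genes used log2 CPM with a prior count of 2. Gene positions and exon lengths are from GENCODE v44 on hg38, and promoters from RefSeq. Replicate libraries of a group differed by more than sampling noise (chi-square per degree of freedom 2.38 to 21.4), so none was counted as the same library sequenced again. This value cannot tell separate cultures from separate libraries of the same culture. The procedure was tested on simulated data.

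The named genes were the 8 members, the other PARs, up to 4 called genes of each list with the largest change and a mean of at least 100 counts, and the 5 genes most like F2RL1 and F3. IQGAP2, AGGF1 and the marker genes given with values fall outside this rule and were named after their values were seen. A result that meets these rules is not reported here. Members and lists were chosen with earlier results of these data known. Alternatives were RLE and upper-quartile factors, mitochondrial genes left out, DESeq2 1.42.0, other filters, a log2 fold limit of 0.5, a fit of 2 groups alone, a block for the replicate number, and each library left out in turn.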

Additional observations from a re-analysis of the deposited data

Results flagged for a closer look

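The change from untreated cells differed between 8 h and 24 h for 4 of the 7 genes tested, by the direct comparison of the 2 times in edgeR. Over all genes 26% were called higher and 28.8% lower in that comparison, so such a difference was common. The log2 difference (24 h minus 8 h) was -0.94 for F3 (adjusted p = 1.7e-07), which was above untreated cells at 8 h and below them at 24 h. For TFPI it was 0.63 (adjusted p = 3.4e-06), for TFPI2 0.35 (adjusted p = 0.00028) and for SERPINE2 -0.42 (adjusted p = 0.00019). Among the other PARs, F2RL2 had -1.96 (adjusted p = 8.6e-09). In each of these 5 genes the 3 libraries of one time lay wholly above or below those of the other, as in 62% of all genes. With 3 libraries a group, single libraries were not tested as outliers.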

How the results depend on the processing

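Among the 7 tested genes and the other PARs, 381 of the single-gene values under alternatives kept direction and side of the threshold, 11 were weaker, 2 stronger and 7 reversed. With a log2 fold limit of 0.5, the number of members called fell from 5 to 1 at 8 h, from 4 to 0 at 24 h and from 4 to 2 between the times, since that limit removes small changes. The count of 0 came from edgeR, and was 0 also at an unadjusted p under 0.05 and in DESeq2; F3 at -0.50 lies at the limit. The wider list then had 25 called in place of 55, 19 in place of 52 and 28 in place of 59.

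Leaving out single libraries gave 5 to 6, 4 to 5 and 4 to 4 members called and 47 to 58, 46 to 53 and 53 to 57 of the wider list, at 8 h, 24 h and between the times. Reversals were confined to values near 0, none of them called: TFPI2 at 8 h ran from -0.091 to 0.026, TFPI at 24 h from -0.128 to 0.073, SERPINE2 at 24 h from -0.05 to 0.124, F2RL2 at 8 h from -0.063 to 0.15, including -0.008 without 8 h replicate 1, and between the times THBD ran from -0.004 to 0.072 and PROCR from -0.007 to 0.028. Without untreated replicate 1, THBD was called lower at both times.

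The replicate numbers do not pair the libraries: deviations of equally numbered libraries correlated from -0.08 to 0.04. With the replicate number as a block, 5, 4 and 4 members were called, and 54, 51 and 56 genes of the wider list. No scaling moved the median of all genes by more than 0.03 on the log2 scale. Depth limits F2RL3 and IQGAP2, with at most 30 counts in a library.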
